A study of Mus musculus with 4 samples.

Results

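The Krüppel-like factors (KLFs) are transcription factors that end in a set of C2H2 zinc fingers and bind GC-rich and CACCC sequences in promoters and enhancers. They differ in the part ahead of the fingers: *Klf2*, *Klf4*, *Klf6* and *Klf7* encode mainly activators, whose products recruit histone acetylases, while *Klf3* encodes a repressor that binds CtBP, and *Klf10*, *Klf11* and *Klf13* encode factors that bind the corepressor SIN3A. In endothelium, laminar flow induces *Klf2* and *Klf4* through the MEK5-ERK5-MEF2 cascade, and their products maintain the vasodilator and anticoagulant state, with *Nos3* (eNOS) and *Thbd* (thrombomodulin) among their known targets. The 9 genes described here, *Klf2*, *Klf3*, *Klf4*, *Klf6*, *Klf7*, *Klf10*, *Klf11*, *Klf13* and *Klf15*, were chosen by name as members of this family, out of 18373 genes in the table, and all 9 passed the filter on low counts.

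The genes were measured by RNA-seq of total RNA from primary liver sinusoidal endothelial cells (LSECs), the fenestrated endothelium that lines the hepatic sinusoid. The cells came from livers of 8-week-old Balb/c mice, were taken by enzyme perfusion, density gradient and CD146 selection, and were cultured on collagen-coated plates. The NC group (2 libraries) received a control siRNA and the si*Airn* group (2 libraries) received siRNA against *Airn*, an imprinted long non-coding RNA, for 48 h in both groups, and the cells are labelled as day 3. The study asked what loss of *Airn* does to LSEC differentiation and placed *Klf2* downstream of it. The titles of both si*Airn* libraries name si*Airn*1, whereas the protocol speaks of separate siRNAs, and the titles call the libraries biological replicates but do not say whether each came from its own animals, so the p-values measure the spread between these libraries, part of which may be technical.

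Library totals lay between 17308382 and 18371959 estimated counts. *Airn* had 7 and 3 counts in NC, against 11 and 9 in the group labelled si*Airn*, a ratio of 2.02 (95% exact binomial interval 0.903 to 4.83, counting error only), so these few counts do not show a lower level in the group meant to lose it. Directions are therefore given for the libraries labelled si*Airn*. In bulk RNA, fewer cells of a type and less RNA per cell cannot be told apart, which bears on every value that follows.

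RefSeq promoter windows (GRCm38.p6, 250 bases before to 50 after the gene's start) were found for 8 of the 9 genes, all but *Klf10*. They are shown for *Klf2*, the member that the study placed downstream of *Airn*, and for *Klf4* and *Klf6*, the members with the lowest adjusted p in each direction. *Klf2* lies at chr8:72318812-72319111 on the plus strand, *Klf4* at chr4:55532426-55532725 on the minus strand and *Klf6* at chr13:5861239-5861538 on the plus strand. Each is written 5′ to 3′ in the direction of the gene, and capitals mark matches to a MEF2 site (CTA and TAG with any 4 bases between them) or to the E-box CACGTG, which CLOCK-BMAL1 and MYC can bind.
Klf2: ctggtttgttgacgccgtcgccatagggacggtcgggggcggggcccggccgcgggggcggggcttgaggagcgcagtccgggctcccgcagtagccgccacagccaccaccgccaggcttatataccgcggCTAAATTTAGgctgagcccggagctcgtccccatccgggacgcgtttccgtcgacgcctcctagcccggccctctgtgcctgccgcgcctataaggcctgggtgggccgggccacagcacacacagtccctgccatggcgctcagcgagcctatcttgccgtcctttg
Klf4: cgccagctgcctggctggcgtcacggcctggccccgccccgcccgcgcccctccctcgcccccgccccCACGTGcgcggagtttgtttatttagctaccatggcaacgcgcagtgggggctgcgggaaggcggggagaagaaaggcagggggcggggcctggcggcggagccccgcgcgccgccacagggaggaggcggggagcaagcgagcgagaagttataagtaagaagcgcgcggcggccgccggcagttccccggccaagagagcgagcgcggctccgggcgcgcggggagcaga
Klf6: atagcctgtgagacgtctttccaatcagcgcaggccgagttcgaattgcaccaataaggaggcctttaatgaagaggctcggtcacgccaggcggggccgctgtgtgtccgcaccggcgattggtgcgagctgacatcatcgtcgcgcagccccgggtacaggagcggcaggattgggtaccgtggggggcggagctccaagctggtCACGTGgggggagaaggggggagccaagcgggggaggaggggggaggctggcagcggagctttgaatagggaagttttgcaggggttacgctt
Of the 8 windows, only that of *Klf2* held the MEF2 letters, from −118 to −109 from the start, against 3.69% of the 32851 RefSeq windows of this length. CACGTG lay in 4 of the 8 (*Klf4*, *Klf6*, *Klf11* and *Klf15*), against 7.15% of all windows, and *Klf15* held 3 copies. The GC box GGGCGG lay in 8 of 8, against 35.7%, and CACCC in 5 of 8 (*Klf2*, *Klf3*, *Klf7*, *Klf13* and *Klf15*), against 57.5%. TATAAA lay in 0 of 8, against 13.6%. Both strands were searched, and some matches shared bases, such as a CACCC and a GC box in *Klf13*. The windows held 58.3 to 77.7% G and C, against a median of 52.7% over all windows, and their CpG content was 0.659 to 1.18 times that expected from base composition, against a median of 0.384. A match describes letters in the window and says nothing of binding in these cells.

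Of the 9 genes, *Klf6* and *Klf10* rose and *Klf4* fell in the libraries labelled si*Airn*, and the other 6 did not pass the test (Benjamini-Hochberg adjusted p under 0.05 over the 13628 genes tested, from the quasi-likelihood test of edgeR, whose adjusted p is meant wherever no other tool is named). *Klf2*, the flow-induced gene at the centre of the study, was 0.874-fold of its NC level with an interval that included no change. The same threshold called 16.8% of all genes tested, 8.27% as higher and 8.56% as lower, and 9 genes are too few to set their share apart from this background. The number of calls in the whole table rested on the NC libraries: without NC replicate 1 edgeR called 40 genes in all, none of these 9 among them, and without NC replicate 2 it called 0 (3106 at an unadjusted p under 0.05). With all 4 libraries, at an unadjusted p under 0.05 there were 4 of the 9, *Klf3* added, against 34% of all genes. The groups did not overlap for 8 of the 9, all but *Klf15*, against 62.7% of all genes, and 5 of the 9 were both higher in si*Airn* and without overlap, against 30.9% of all genes. The median log2 fold change was 0.12 over the 9 genes and 0.00 over all genes tested. The study's methods state a threshold of 1.4-fold with p under 0.05, taken here as the unadjusted p, and 1 member passed it (*Klf4*), against 9.96% of all genes.

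**Figure D1:**
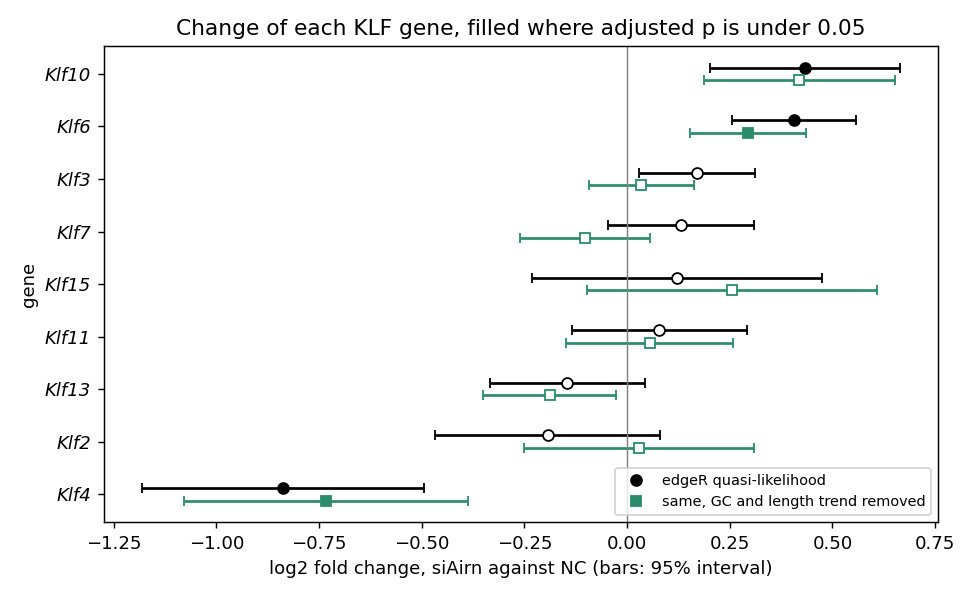
Log2 fold change of each KLF gene, si*Airn* against NC, with its 95% interval: black circles from edgeR's quasi-likelihood test and green squares from the same test with the trend on GC content and length removed, filled where the adjusted p is under 0.05. *Klf4* lies left of 0 and *Klf6* and *Klf10* right of it in both fits, while *Klf2* moves from −0.19 to 0.03.

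*Klf2* (gene ID 16598, chr8:72319033-72321656, plus strand, GRCm38) encodes the factor that flow induces in endothelium and that activates *Nos3* and *Thbd*. It had 252 and 242 counts in the NC libraries and 224 and 215 in the si*Airn* libraries, or 14.7, 13.4, 12.4 and 12.2 CPM (counts scaled to the normalized library total). Both si*Airn* libraries lay below both NC libraries, but the gap between the groups was smaller than the gap between the NC libraries. The log2 fold change was −0.19 (SE 0.12, 95% interval −0.47 to 0.08), with an edgeR adjusted p of 0.284. The interval holds both falls and a small rise, so a level equal to NC is not shown.

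The longest *Klf2* transcript is 1847 bases long with 61.6% G and C, and across genes the change in these libraries went with base composition (Spearman's rho −0.33 over 12948 genes, which are not independent replicates and share the 4 libraries). The median log2 fold change was 0.19 in the lowest of 20 bins of GC content and −0.16 in the highest. Among 61 genes tested with GC content within 1 percentage point and length within 1.2-fold of *Klf2*, the median log2 fold change was −0.20, and 52.5% of them lay below *Klf2*. With the trend on GC content and length removed, the log2 fold change of *Klf2* was 0.03 (95% interval −0.25 to 0.31), with an edgeR adjusted p of 0.892. The trend was fitted to these same 4 libraries, so any difference between the groups that follows GC content or length is removed with it. The cause of the trend was not tested. The 3 genes with the most similar pattern over the 4 libraries, of 10744 compared by the root mean square difference of centred log2 CPM, were *B4galt4* (0.00613), *Vrk3* (0.00696) and *Atxn7l2* (0.00844).

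**Figure D2:**
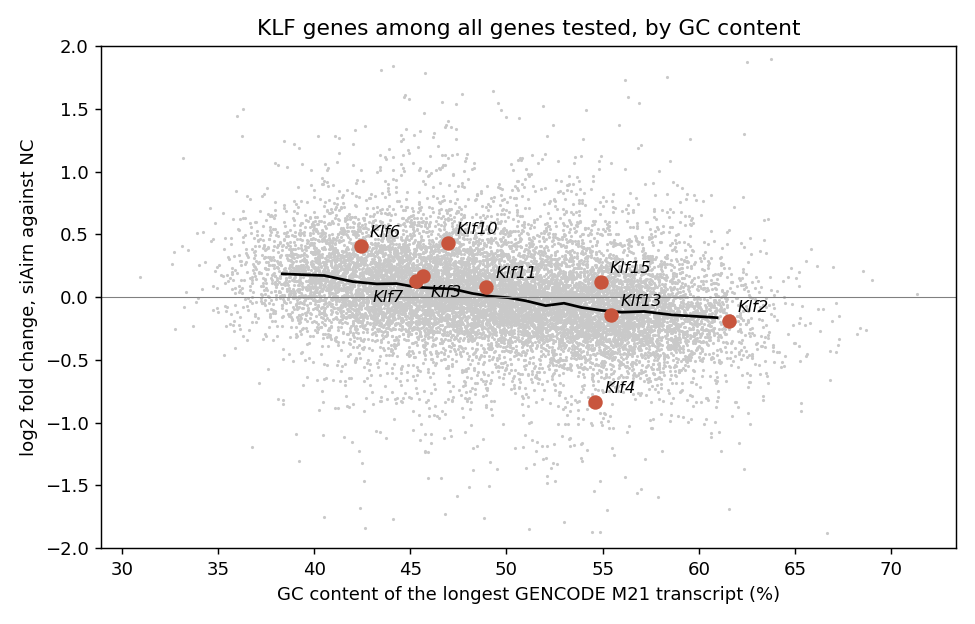
Log2 fold change of each gene tested (grey, vertical axis from −2 to 2, which leaves out 21 genes) against the GC content of its longest transcript, with the KLF genes in red and the median in 20 bins as a black line. The line falls from 0.19 to −0.16, *Klf2* sits at its end at 61.6% GC, and *Klf4*, *Klf6* and *Klf10* sit away from it.

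*Klf4* (gene ID 16600, chr4:55527143-55532466, minus strand, GRCm38), which encodes a flow-induced factor with endothelial targets in common with *Klf2* and is also one of the pluripotency reprogramming factors, fell most of the 9. It had 274 and 236 counts in the NC libraries and 144 and 146 in the si*Airn* libraries, or 16.0, 13.0, 7.97 and 8.25 CPM. The groups were far apart, and the si*Airn* libraries differed little from each other. The log2 fold change was −0.84 (SE 0.14, 95% interval −1.18 to −0.50), or 0.559-fold, with an edgeR adjusted p of 0.0145. With the GC and length trend removed it was −0.73 (adjusted p 0.0367, same test), and 2.90% of 310 genes of like GC content and length lay below *Klf4*. The call rested on having both NC libraries: leaving out NC replicate 1 gave a log2 fold change of −0.69 with an edgeR adjusted p of 0.0935, and leaving out NC replicate 2 gave −0.98 with 0.0899.

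*Klf6* (gene ID 23849, chr13:5861482-5870394, plus strand, GRCm38), an early gene of tissue injury that is also known from activated hepatic stellate cells, had the highest level of the 9. It had 5770 and 5685 counts in the NC libraries and 7734 and 7696 in the si*Airn* libraries, or 337, 314, 428 and 435 CPM. Replicates lay close together in both groups, and every si*Airn* value exceeded every NC value. The log2 fold change was 0.41 (SE 0.06, 95% interval 0.26 to 0.56), or 1.33-fold, with an edgeR adjusted p of 0.0116. With the GC and length trend removed it was 0.30 (adjusted p 0.0375, same test), and 87.5% of 303 genes of like GC content and length lay below *Klf6*. This call too needed both NC libraries, although the log2 fold change stayed near 0.41: it was 0.45 (edgeR adjusted p 0.0704) once replicate 1 was left out and 0.36 (0.114) once replicate 2 was.

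*Klf10* (gene ID 21847, chr15:38291463-38300706, minus strand, GRCm38), an early gene of TGF-β signalling whose product represses through SIN3A, rose as well. It had 345 and 399 counts in the NC libraries and 493 and 526 in the si*Airn* libraries, or 20.1, 22.1, 27.3 and 29.7 CPM. The lowest si*Airn* value stood above the highest NC value by more than either group spread. The log2 fold change was 0.43 (SE 0.10, 95% interval 0.20 to 0.67), or 1.35-fold, with an edgeR adjusted p of 0.0286. Of 311 genes of like GC content and length, 91.3% lay below *Klf10*. This was the least firm of the 3 calls: the log2 fold change stayed at 0.43 by DESeq2 and at 0.42 with the GC and length trend removed, but the adjusted p was 0.0681 by DESeq2 and 0.0530 by edgeR without the trend. By edgeR the log2 fold change was 0.37 (adjusted p 0.152) without NC replicate 1, 0.50 (0.124) without NC replicate 2 and 0.37 (0.0866) without si*Airn* replicate 2.

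**Figure D3:**
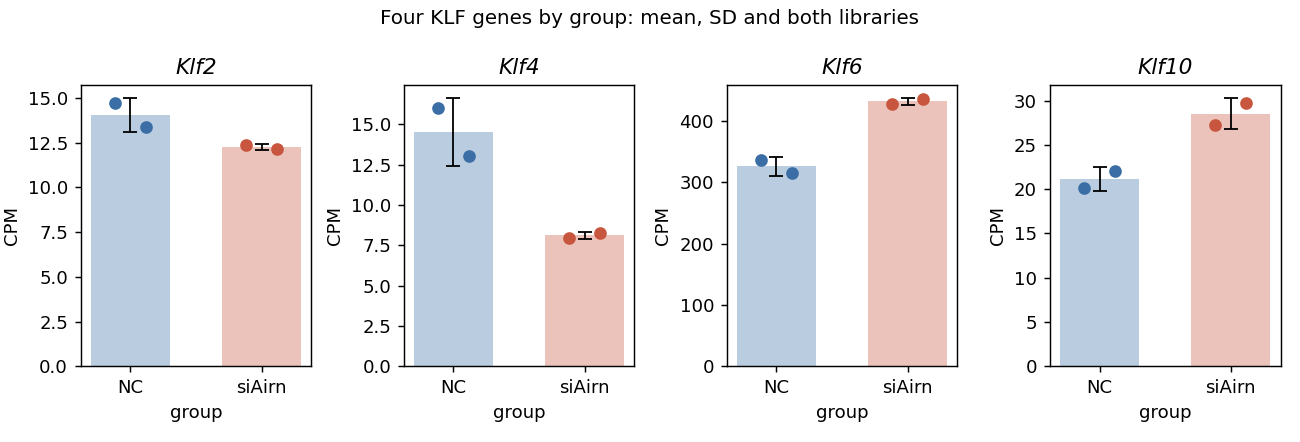
CPM of *Klf2*, *Klf4*, *Klf6* and *Klf10* by group, each panel with its own axis from 0: bars are means of 2 libraries, error bars the SD, and points the libraries. The si*Airn* points of *Klf4* are near 8 CPM, below 16.0 and 13.0 in NC, those of *Klf6* are 428 and 435 against 337 and 314, and those of *Klf2* lie just under the NC points.

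The other 5 members did not pass the test either. *Klf3* (gene ID 16599, chr5:64803388-64832901, plus strand), which encodes the CtBP-binding repressor, had 2890.62 and 2967.45 estimated counts in NC against 3377.29 and 3314.34 in si*Airn*. All si*Airn* values were above all NC values, and the log2 fold change was 0.17 (95% interval 0.03 to 0.31, edgeR adjusted p 0.0954). *Klf3* passed with a replicate block (0.17, edgeR adjusted p 0.0178), although the labels share only a number. Its FPKM, the deposited value that is scaled to transcript length and library total, differed more (41.58 and 40.89 in NC, 50.36 and 52.05 in si*Airn*), because the transcript length implied by count and FPKM fell from 4017 and 3950 bases to 3775 and 3629. On log2(FPKM + 1), limma gave a log2 difference of 0.31, with an adjusted p of 0.0305 when genes of mean FPKM under 1 were left out and of 0.0813 when they were kept. From counts with the GC and length trend removed the log2 fold change of *Klf3* was 0.03. *Klf3* counts were not whole, and 6.92% of the 50-base windows of its transcript also occur in other annotated genes, so its values may hold reads of those genes.

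*Klf7* (gene ID 93691, chr1:64029447-64122282, minus strand), a broadly expressed activator best known from neurons, was counted 2328 and 2219 times in NC against 2636 and 2425 in si*Airn*. Its log2 fold change was 0.13 (95% interval −0.05 to 0.31) and −0.10 with the GC and length trend removed, so its direction was not settled. Of its exonic bases, 39.4% lie under genes of the opposite strand, and the sources used here do not say whether counting used strand, so its values may hold reads of those genes.

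*Klf13* (gene ID 50794, chr7:63886351-63938915, minus strand), a repressor and activator known for *Ccl5* in T cells, went from 2228 and 2055 counts to 2012 and 1926 (log2 fold change −0.15, 95% interval −0.33 to 0.04). With the GC and length trend removed its log2 fold change was −0.19 (95% interval −0.35 to −0.03, edgeR adjusted p 0.135). *Klf11* (gene ID 194655, chr12:24651274-24662789, plus strand), a relative of *Klf10* that is also induced by TGF-β, stood at 387 and 399 counts in NC against 437 and 406 (log2 fold change 0.08, 95% interval −0.13 to 0.29). *Klf15* (gene ID 66277, chr6:90462576-90475238, plus strand), a glucocorticoid-induced regulator of amino acid and lipid metabolism, stood at 149 and 154 counts in NC against 185 and 150 (log2 fold change 0.12, 95% interval −0.23 to 0.47). The *Klf15* groups overlapped, and the difference was −0.02 without si*Airn* replicate 1. Of 273 genes of like GC content and length, 86.1% lay below *Klf15*, although it was not called, close to the 87.5% for *Klf6*. For all 6 members that did not pass the test, *Klf2* included, the 95% interval of the fit without trend removal lay within a 1.4-fold change in either direction (0.49 on the log2 scale). With the GC and length trend removed that of *Klf15* reached 0.61.

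Levels of different genes were compared by FPKM only. In NC the order of mean FPKM was *Klf6* (78.3 ± 4.12, SD, n = 2), *Klf3* (41.2 ± 0.488), *Klf13* (19.2 ± 1.90), *Klf7* (19.1 ± 1.99), *Klf2* (8.07 ± 0.636), *Klf10* (7.06 ± 0.438), *Klf11* (5.70 ± 0.113), *Klf4* (4.90 ± 0.721) and *Klf15* (3.63 ± 0.0212). Neighbours in this order did not overlap except *Klf13* and *Klf7*. In si*Airn*, *Klf7* (21.6 ± 0.658) stood above *Klf13* (17.8 ± 0.403), *Klf10* (9.77 ± 0.552) above *Klf2* (7.25 ± 0.205), and *Klf15* (4.07 ± 0.566) above *Klf4* (2.82 ± 0.0495), which was then the lowest of the 9, and no neighbours overlapped. Over all 4 libraries the mean FPKM of *Klf6* was above 92.6% of the genes tested and that of *Klf3* above 84.2%, while *Klf2* was above 43.6% and *Klf4* above 31.0%. The genes known for flow, *Klf2* and *Klf4*, were thus below the middle of the genes tested.

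**Figure D4:**
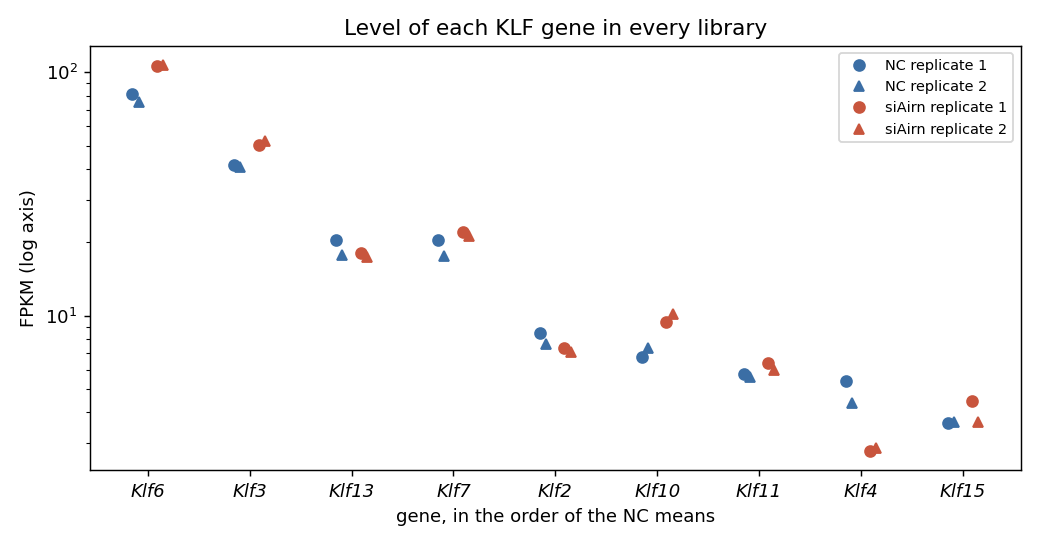
FPKM of each KLF gene in every library on a log axis, in the order of the NC means, with NC in blue and si*Airn* in red. *Klf6* is highest in every library, between 75.4 and 107 FPKM, and *Klf4* is the lowest of the 9 in both si*Airn* libraries.

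The summed FPKM of the 9 genes was 193.84 and 180.39 in the NC libraries and 227.1 and 227.34 in the si*Airn* libraries. *Klf6* made up 41.9% and 41.8% of that sum in NC against 46.8% and 47.0% in si*Airn*, while *Klf2* made up 4.40% and 4.22% against 3.25% and 3.12%, and *Klf4* 2.79% and 2.43% against 1.22% and 1.25%. Within this sum of 9 genes the share of *Klf6* was larger and the shares of *Klf2* and *Klf4* smaller in the libraries labelled si*Airn*, with no overlap between groups. The smaller share of *Klf2* came mostly with the larger sum, since its own FPKM went from 8.07 to 7.25 and its change did not pass the test. The sum leaves out *Klf9* (10.8 FPKM in NC) and *Klf16* (16.3), which both exceeded *Klf2*. The ratio of *Klf6* to *Klf4* was 15.0 and 17.2 in NC against 38.2 and 37.5 in si*Airn*, and that of *Klf10* to *Klf2* was 0.792 and 0.967 against 1.27 and 1.43. With 2 libraries against 2, the smallest two-sided p an exact permutation test can give is 0.333, and each of these ratios and sums gave that value. These are shares of transcripts per length and not of protein.

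Markers of the cell types in the culture moved with the groups. Of 13 pan-endothelial markers tested, 9 fell and none rose (median log2 fold change −0.53), with *Pecam1* at −0.53 and *Cdh5* (VE-cadherin) at −0.58, with 6 of the 13 still called lower once the GC and length trend was removed, and their summed level was 11242 and 10710 CPM in NC and 8124 and 7128 in si*Airn*. Of 12 LSEC markers, 9 fell and none rose (median −0.57), with *Lyve1* at −0.84, and their sum went from 3913 and 3946 CPM to 2782 and 2514. The scavenger receptor *Stab2* was at −0.25 and did not pass the test. DESeq2 called 11 of the 12 as lower, and the fit with the GC and length trend removed called all 12, *Stab2* included (−0.40, edgeR adjusted p 0.0492). *Kdr* was among the 4 pan-endothelial markers not called, at 0.02 (edgeR adjusted p 0.901). The change of *Klf4* (−0.84) thus stood beside a fall of most of the endothelial markers listed, while that of *Klf2* (−0.19) was smaller than the median of either list. Whether the endothelial markers and the KLF genes moved for the same reason was not tested.

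Of 13 macrophage markers tested, 7 fell and none rose (median −0.70), *Clec4f* among them at −1.43. The sum over all 15 listed was 249 and 317 CPM in NC and 193 and 161 in si*Airn*. DESeq2 called 5 of the 13 as lower, and with the GC and length trend removed 1 was called (*Clec4f*), while the median was −0.53 and *Adgre1* stood at −0.84, against −0.82 before. Of 14 stellate cell and fibroblast markers, 4 rose and none fell (median 0.35), and the sum was 1984 and 2376 CPM in NC and 2262 and 2860 in si*Airn*, so the groups overlapped. *Reln* (0.98), *Col3a1* (0.76), *Lum* (0.43) and *Acta2* (0.33) were the 4 that rose, while *Des* (0.15) and *Col1a1* (0.29) did not pass the test. Of 14 hepatocyte markers tested, 2 rose (*Apoa1*, 1.19, and *Apob*, 0.70) and none fell (median 0.46), with *Alb* at 0.50 (edgeR adjusted p 0.0598). The sum over all 15 listed was 701 and 883 CPM in NC and 970 and 1263 in si*Airn*. *Lum* (0.39) and *Apob* (0.35) did not pass with the GC and length trend removed, whereas the other 3 stellate markers and *Apoa1* did, and the hepatocyte marker *Serpina1c* (0.53, edgeR adjusted p 0.0481) then passed. DESeq2 called 6 of the 14 stellate markers and 3 of the 14 hepatocyte markers as higher. Only 3 of 12 lymphocyte and neutrophil markers passed the filter, and the sums over all 12 ran from 4.49 to 6.39 CPM. Of all markers listed, also those below the filter, 4 were at 0 in some library (*Timd4*, *Tat*, *S100a9* and *Ly6g*) and the rest had counts in all 4. *Klf6*, *Klf4* and *Klf10* are also expressed in stellate cells, macrophages and hepatocytes, and the part of these cells in the KLF values was not tested.

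Known targets of KLF2 and KLF4 in endothelium moved in both directions. The list holds genes that these factors induce and others that they repress, so neither its counts nor its median measure their activity. Of 24 tested, 3 rose, 5 fell and 16 did not pass the test, and the median log2 fold change was −0.23. *Thbd*, which both factors induce, rose, from 309 and 321 CPM to 377 and 439 (log2 fold change 0.37, SE 0.08, edgeR adjusted p 0.0278). *Nos3*, which both factors also induce, fell, from 35.2 and 30.0 CPM to 24.5 and 20.2 (−0.55, SE 0.13, adjusted p 0.0302 by edgeR, and −0.45 with 0.0710 once the GC and length trend was removed). These textbook targets of the same factors thus changed in opposite directions. The tight junction gene *Cldn5* fell most (−0.82) and the junction scaffold *Tjp1* rose (0.35). Once the GC and length trend was removed, 1 of the 24 was called higher (*Thbd*) and 2 lower (*Cldn5*, −0.58, and *Ccl2*, −0.32), and *Tjp1* was at 0.15 and did not pass. *Edn1*, the vasoconstrictor endothelin that KLF2 represses, was at −0.27 (adjusted p 0.0741 by edgeR and 0.0347 by DESeq2). DESeq2 called 3 of the list as higher and 6 as lower. *Kdr* (VEGFR2) was at 0.02 (adjusted p 0.901 by edgeR). Of 6 genes of nitric oxide and cGMP signalling, *Nos3* included, *Gucy1a2* (1.07), *Prkg1* (0.72) and *Gucy1b1* (0.58) rose and *Nos3* fell. *Gucy1a2* and *Gucy1b1* were called with the GC and length trend removed as well, and *Prkg1* (0.47, edgeR adjusted p 0.0689) and *Nos3* (−0.45) were not.

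Of 17 genes that act upstream of *Klf2* in flow sensing, 2 rose, 1 fell and 14 did not pass the test (median −0.07). The kinase gene *Map3k2* (0.51) rose, as did *Krit1* (0.34), a component of the cerebral cavernous malformation complex that restrains *Klf2*. The kinase gene *Map3k3* (−0.32) fell. None of these 3 passed once the GC and length trend was removed (*Map3k2* 0.15, *Krit1* 0.11, *Map3k3* −0.23), and 2 others, *Mef2a* (−0.33) and *Mef2c* (−0.49), which encode MEF2 factors, were then called lower. Of 17 cofactor and degradation genes, 4 rose and 1 fell (median 0.07). *Ep300*, the acetylase that activator KLFs recruit, rose by 0.51 and kept its call with the trend removed (0.32), *Egr1*, whose product competes for GC-rich sites, rose by 0.29, and *Smurf1*, a ubiquitin ligase, fell by 0.22. DESeq2 called 1 of these 17 genes, and with the trend removed 2 were called, *Ep300* and *Egr1*, with *Smurf1* still at −0.22 (edgeR adjusted p 0.0595). Of 7 genes of the Polycomb complex PRC2, *Suz12* rose (0.39), and *Ezh2*, its methyltransferase, was at 0.11 (adjusted p 0.388 by edgeR). With the trend removed *Suz12* was at 0.26 (edgeR adjusted p 0.0724) and 0 of the 7 were called. DESeq2, without that correction, called 1.

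The rest of the family gave little to set beside the 9. Of 9 other KLF genes listed, 7 were in the table and 4 passed the filter, and none passed edgeR's test or DESeq2, with 1 at an unadjusted p under 0.05 (*Klf12*, 0.69 on the log2 scale). *Klf9* was at 54.4 and 47.9 CPM in NC against 60.5 and 56.0 (0.19), *Klf16* was at 0.08 and *Klf5* at 0.37. Of the related SP factors, which bind GC boxes with the same kind of fingers, 6 passed the filter and 3 rose, *Sp1* (0.39), *Sp3* (0.35) and *Sp4* (0.51), while *Sp2* (0.00), *Sp5* (−0.87) and *Sp6* (0.56) did not pass the test. With the GC and length trend removed 0 of the 6 passed, at 0.14, 0.21 and 0.29 for *Sp1*, *Sp3* and *Sp4*.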

How the data were processed

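RNA-seq of 4 LSEC libraries (2 NC, 2 si*Airn*, grouped by their labels) was analysed. The authors deposited, per gene and library, estimated counts (76.5 to 76.8% whole) and a second value read as FPKM from its relation to count, length and library total. The submitters' processing notes name BWA, Bowtie2, RSEM and the build hg19, with no role given, while the gene IDs are those of mouse genes. Filters and the use of strand in counting are not given in the sources used here. Reads were single-end and 50 bases long. The group means that the authors deposited were not used.

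Counts were rounded and tested in R 4.3.3 with edgeR 4.0.16 (TMM factors 0.985 to 1.02, filterByExpr, glmQLFit and glmQLFTest, no covariate), adjusted by Benjamini-Hochberg over 13628 genes. Log2 fold changes are si*Airn* against NC. CPM were computed from library totals scaled by TMM. Alternatives used DESeq2 1.42.0, limma 3.58.1 on log2(FPKM + 1 or 0.1), other filters and normalizations, natural splines on GC content and length (5 degrees of freedom each, per library), a replicate block and leaving out each library. The fits across genes were tested on simulated data. Replicates differed by more than sampling noise (chi-square per degree of freedom 6.43 and 8.57). Gene positions, lengths and GC content are from GENCODE M21 (GRCm38) and promoters from RefSeq (GRCm38.p6).

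The members and gene lists were chosen with earlier results of these data known. Named genes were all members, *Airn*, *Ezh2*, *Nos3*, *Thbd*, *Edn1*, *Kdr*, tested KLF and SP genes, defining markers and the 3 genes most like *Klf2*. Up to 2 called genes per direction with the largest change, at a mean of at least 5 CPM, were named in most lists. The pan-endothelial, LSEC and macrophage lists were the exceptions, with defining markers and *Kdr* alone named. Called genes with large falls there, such as *Sox18* (−0.83), *Clec4g* (−1.33), *Dnase1l3* (−1.19) and *Cd5l* (−1.23), were left out of the Results. *Gucy1b1*, *Lum*, *Acta2*, *Id3*, *Ccl2*, *Serpina1c*, *Timd4*, *Tat*, *S100a9*, *Ly6g*, *Mef2a* and *Mef2c* were named after their values were seen, to complete a count. The comparison with genes of like GC content (within 1 percentage point) and length (within 1.2-fold) was chosen after seeing the data, and with lengths within 1.5-fold the shares of such genes below *Klf2*, *Klf4*, *Klf6* and *Klf10* were 49.2, 2.99, 87.5 and 90.9%. The binomial interval of the *Airn* ratio covers counting error only, and the intervals of log2 fold changes come from the edgeR fit and cover the spread between libraries.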

Additional observations from a re-analysis of the deposited data

How the results depend on the processing

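Of 126 values of the 9 KLF genes under the alternatives, 108 kept direction and side of the threshold, and no called gene changed sign. Members called stayed at 3 of 9 (2294 genes called in all) or within 2 to 4 with all libraries, except that limma on log2(FPKM + 1) with no filter on low values called 0 members and 0 genes (4 members and 4418 genes at an unadjusted p under 0.05). Leaving out each library gave 0 to 3 members and 0 to 2410 genes called by edgeR: 40 genes without NC replicate 1, 0 without NC replicate 2 (3106 genes and 4 members at an unadjusted p under 0.05), and 1446 without si*Airn* replicate 2. Such fits assume that the lone library varies like the other group. Members past the study's threshold were 1 to 2 in these fits, and 0 at a fold change over 2. With the GC and length trend removed, 992 genes were called and the log2 fold change of *Klf2* was 0.029. With a replicate block 4841 genes were called, *Klf3* among them (adjusted p 0.0178). The labels share only a number, 2 pairs cannot establish pairing, and the deviations of same-numbered libraries correlated with r = 0.40 over 10745 genes. DESeq2 called 1 cofactor and degradation gene of 17, against 5 by edgeR. The *Klf6* share of the summed level in NC was 44.5% from counts per kilobase of the longest GENCODE transcript, against 41.8% from FPKM. The cause of these shifts was not tested. Depth limits *Klf15*, *Klf4* and *Klf2* most, each under 300 counts per library.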

Other observations

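Genes that respond to the signals known to induce other members were measured as well. Of 10 early TGF-β and BMP targets, the pathway that induces *Klf10* and *Klf11*, 1 rose and 3 fell (median log2 fold change 0.03, edgeR adjusted p under 0.05 as the threshold). *Skil*, a feedback inhibitor of SMADs, rose with 81.1 and 84.5 CPM in NC and 102 and 107 in si*Airn* (0.34), whereas *Id2* (−0.54) and *Id1* (−0.54), which encode dominant-negative helix-loop-helix proteins, fell. The rise of *Klf10* was thus not accompanied by a common direction over these 10 genes. After removal of the GC and length trend 1 of the 10 was called, *Id2* (−0.52), while *Skil* (0.08), *Id1* (−0.32) and *Id3* (−0.13) were not.

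Of 21 glucocorticoid and clock genes, listed because both signals act on *Klf15* and *Klf9*, 3 rose and 3 fell (median 0.13). *Dbp*, a clock output gene, fell from 15.5 and 18.2 CPM in NC to 5.20 and 5.26 in si*Airn* (−1.69), and *Rasd1*, a dexamethasone-induced Ras-related gene, from 7.76 and 9.51 to 1.88 and 3.11 (−1.79). *Cry2* (0.43) and *Clock* (0.35) rose, *Clock* only before the GC and length trend was removed (0.02 after). With the trend removed 2 of the 21 were called higher and 3 lower, *Dbp* and *Rasd1* among the latter. *Klf15* (0.12) and *Klf9* (0.19) did not pass the test. The time of day of harvest is not given in the sources used here.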
